A study of Homo sapiens with 30 samples.

Results

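LX2 cells exposed to docosahexaenoic acid (DHA) and betacellulin (BTC) were compared with LX2 cells exposed to oleic acid and BTC. The members were the 5 libraries labelled DHA+BTC and the 5 labelled OLA+BTC, 10 of the 30 libraries of the series. They were taken by their group label and paired by experiment, a number from 1 to 5 that the labels give as a cohort. In the DHA+BTC group the fatty acid was DHA, with 22 carbons and 6 double bonds (ω3), and in the OLA+BTC group it was oleic acid, with 18 carbons and 1 double bond (ω9). Both were given at 50 µM on 20 µM albumin, and both groups received BTC at 20 ng/ml for 72 h in medium with 1% serum. The protocols give the fatty acid as 2 cycles of 48 h and, in another passage, as 96 h before BTC, while the treatment label lists it together with BTC for 72 h. Whether fatty acid was still present during the BTC phase is therefore not settled by the labels. All cells were of 1 line, LX2, and the labels do not say whether the experiments were separate passages, so p-values measure the spread between cultures of that line. The remaining 20 libraries were cells with vehicle in place of the fatty acid, of BTC or of both (DHA+Veh, OLA+Veh, Veh+BTC and Veh+Veh, 5 of each). The library number after a group name is its experiment.

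LX2 is a human line of activated hepatic stellate cells. In healthy liver these cells store vitamin A, and in injured liver they turn into contractile, matrix-secreting myofibroblasts that lay down scar collagen. BTC is a growth factor that binds the receptors EGFR and ERBB4 and so activates the ERK cascade. Polyunsaturated fatty acids such as DHA are known in liver cells as ligands of PPAR receptors, as inhibitors of SREBP, the factor behind sterol and fatty acid synthesis genes, and as lipids that oxidize readily. Oleic acid is a monounsaturated fatty acid and a substrate for triglyceride storage.

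Polyadenylated RNA was counted by 3′ tag sequencing, and levels are in CPM, the reads of a gene scaled to the same total in every library. Such tags lie near the transcript end, so a CPM value does not depend on transcript length. The DHA+BTC libraries held 1245182 to 3708438 reads (median 3233378), and the OLA+BTC libraries 3236415 to 5338852 (median 4433495). DHA+BTC was thus the shallower group, and DHA+BTC 5 and DHA+BTC 4 were, with DHA+Veh 5, the 3 shallowest libraries of all. For a gene without a read, the limit of 3 reads stood at 2.41 CPM in DHA+BTC 5 and at no more than 0.927 CPM in the OLA+BTC libraries, counting error only. All 16 stellate and mesenchymal markers had reads, summing to 1840.5 to 4821 CPM in DHA+BTC libraries and 2576 to 6746 CPM in OLA+BTC libraries. The 18 hepatocyte markers, 8 of them at 0 in all 10 libraries, summed to 0 to 7.11 CPM in DHA+BTC libraries and 1.12 to 6.80 CPM in OLA+BTC libraries. In bulk RNA, fewer cells of a type and less RNA per cell cannot be told apart.

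The library OLA+BTC 2 stood apart by genes of other cell types. HBD, a haemoglobin chain of red cells, had 1594 CPM there and at most 151.6 CPM in the other 29 libraries, and HBB, the main adult beta chain, had 263 against at most 16.3 CPM. PTPRC, the leukocyte surface marker CD45, had 27.8 CPM against at most 3.502 CPM. The summed erythroid list (14 genes) was at 50.7 to 173.8 CPM in DHA+BTC libraries, at 34.0 to 114 CPM in the other 4 OLA+BTC libraries and at 1874 CPM in OLA+BTC 2. In OLA+BTC 2 the myeloid list was at 466 CPM, the B cell list at 221 CPM, the shared leukocyte list at 562 CPM and the adipocyte list at 341 CPM, all 4 above every other library of the series. Of all genes in the table, 256 were at least 1 log2 unit above the highest of the other 29 libraries in OLA+BTC 2, and the next highest number was 166, in DHA+BTC 5. Its stellate markers, at 5041 CPM, lay inside the range of the other libraries. Some marker lists were also high in single DHA+BTC libraries. In DHA+BTC 5 the adipocyte list was at 155.0 CPM, against 10.3 to 37.5 CPM in the other 4 DHA+BTC libraries. Most of that sum was FABP4, a fatty acid-binding protein of adipocytes, at 131 CPM there and at 255 CPM in OLA+BTC 2. The adipocyte markers ADIPOQ and PLIN1 had no read in any of the 10 libraries, and LEP, CIDEC and AQP7 had none in DHA+BTC 5. DHA+BTC 5 also had the most reads of the leukocyte genes TYROBP (20.1 CPM) and CD53 (12.8 CPM) in its group. It was the highest library of its group for CSF3, CXCL1, CXCL3, CXCL6, CXCL8 and PTGS2, and likewise for ANGPTL4, MMP1, TFPI2 and IER3. For IL1B, PTGES, GDF15, STC1 and INHBA another DHA+BTC library was the highest. In DHA+BTC 1 the T and NK cell list was at 481 CPM, against 91.8 to 156.6 CPM in the others of its group. Of this sum 457 CPM was IL7R, a gene at 72.7 CPM or more in all 10 libraries. The T cell genes CD3D, CD3E and CD3G had no read in DHA+BTC 1. The part of these reads in the results was not tested, and counts are given with and without OLA+BTC 2. Of the genes described below as called, CFB, PODN, TIMP3 and EDN1 lost the call without it.

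**Figure D1:**
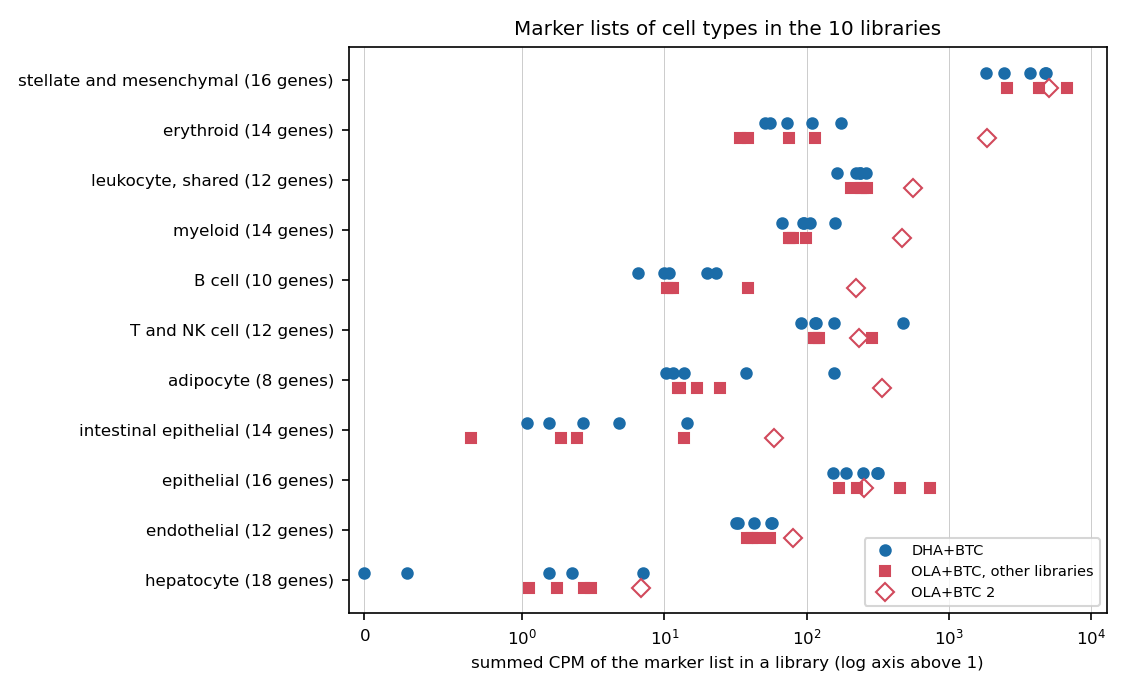
Summed CPM of 11 marker lists (horizontal, log axis above 1) in the 5 DHA+BTC libraries (circles, above) and the 5 OLA+BTC libraries (squares, below; OLA+BTC 2 as open diamond). OLA+BTC 2 lies right of every other point for the erythroid, shared leukocyte, myeloid, B cell, adipocyte, intestinal epithelial and endothelial lists, and inside the others' range for stellate and mesenchymal markers.

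Under BTC, the fatty acids left different transcript levels for a limited set of genes. Several chemokines and other inflammatory genes, the lipase inhibitor ANGPTL4, the collagenase MMP1, the protease inhibitor TFPI2 and some hypoxia-related genes were higher in DHA+BTC libraries. Matrix, contractile and YAP/TEAD genes, along with sterol synthesis genes, supplied called genes that were lower. Differences are DHA+BTC minus OLA+BTC on the log2(CPM + 1) scale, which understates changes of low genes, and ± gives the standard error. In all, 261 of 15137 tested genes were called at an adjusted p under 0.05 (limma), which is 1.72% of those tested. Of these, 92 were higher in DHA+BTC (0.608%) and 169 lower (1.12%). The median difference of all tested genes was -0.18 on the log2 scale and 68.9% of them lay below 0, so list medians below are to be read against that shift. Of the called genes, 217 had the same sign in 5 of 5 experiments, against 10.9% of all tested genes, and 31 had groups that did not overlap, against 0.621%.

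Without OLA+BTC 2, 248 genes were called (1.64%), 95 higher in DHA+BTC (0.628%) and 153 lower (1.01%). The calls shared by both sets numbered 215, which is 82.4% of the calls with that library and 86.7% of those without it, and no called gene changed sign. Leaving it out ended 46 calls and added 33. Among the ended calls with larger differences were CFB, complement factor B (log2 difference 1.78, adjusted p = 0.0306 with the library and 0.0549 without), and PODN, a matrix proteoglycan (-2.06, 0.0459 and 0.0936). Among the added ones were AMPD3, an AMP deaminase (1.59, adjusted p = 0.0882 with the library, and 2.18, 0.00765 without), and SIGLEC15, a sialic acid-binding receptor (1.41, 0.0669, and 1.93, 0.00278). CFB and PODN also lost the call in 5 and 6 of the other fits without 1 library (adjusted p from 0.0719 to 0.180).

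**Figure D2:**
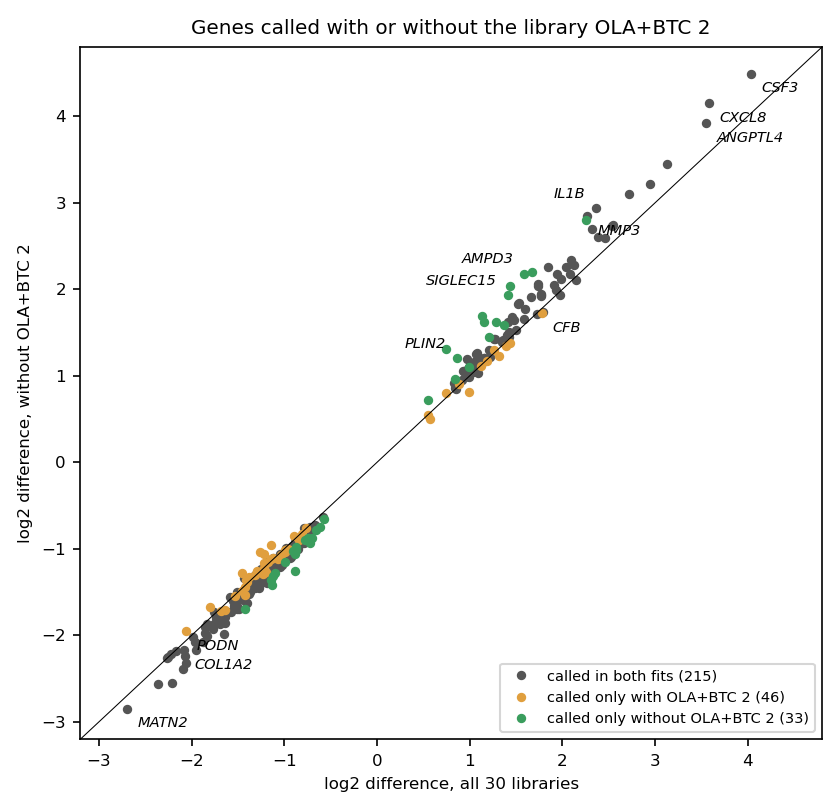
Log2 difference of CPM + 1, DHA+BTC minus OLA+BTC, for each gene called in either fit, from all 30 libraries (horizontal) and without OLA+BTC 2 (vertical). The 215 genes called both ways (dark), the 46 called with the library alone (orange) and the 33 called without it alone (green) all keep their sign and lie near the line of equality.

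The number of calls depended more on other libraries and on the fit than on OLA+BTC 2. Leaving out DHA+BTC 1 or 2 raised it to 474 or 408 genes, and leaving out DHA+BTC 3, 4 or 5 gave 134, 120 or 80. Leaving out OLA+BTC 1, 3, 4 or 5 gave 195, 93, 71 or 75, and 58 genes, 29 in each direction, were called in all 10 such fits. Without the 3 shallowest libraries 28 genes were called (0.185%), 16 higher (0.106%) and 12 lower (0.0793%), and 26 of them were among the 261. Of the 59 called genes described below, 30 kept the call in all 10 fits without 1 library, and of these 30, 15 were also called without the 3 shallowest. Leaving out a whole experiment kept 53, 54, 17, 18 and 25 of the 59 for experiments 1 to 5. Without the experiment as a block 1 gene was called, ANGPTL4, and with the block but the 10 libraries alone 5 were, ANGPTL4, TFPI2, STC1, IER3 and IGFBP5. The balance of directions moved with scaling, since median-of-ratios scaling gave 205 calls (1.35%), 126 higher (0.832%) and 79 lower (0.522%). The count test edgeR on the recovered reads gave 165 (1.09%), 116 higher (0.766%) and 49 lower (0.324%).

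**Figure D3:**
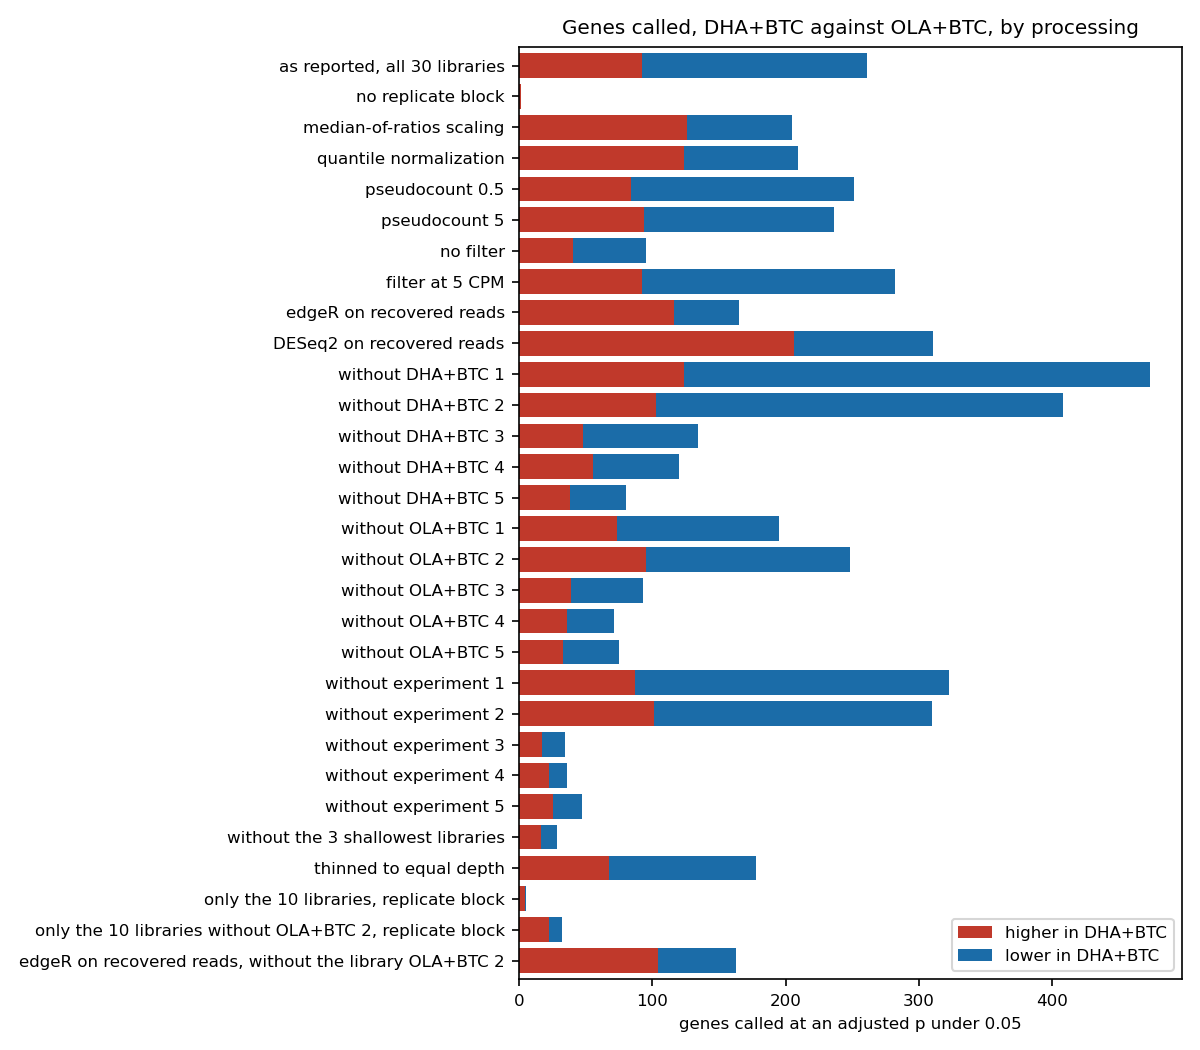
Genes called at an adjusted p under 0.05 (horizontal), higher in DHA+BTC (red) and lower (blue), for the reported fit of 30 libraries and each alternative. The count runs from 1 without the replicate block to 474 without DHA+BTC 1, and the higher share exceeds the lower one under median-of-ratios scaling, quantile normalization, edgeR and DESeq2.

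The chemokines of the CXC family that recruit neutrophils were among the largest rises. 6 tested ones of the cytokine list with the NF-kB letters before the start lie in a cluster on chromosome 4, and the stretch that holds these letters is shown for all 6. Of these neighbours 4 were called higher, CXCL3 was called without OLA+BTC 2, and CXCL2 was called in neither fit. The sequences are from RefSeq (GRCh38.p14), bases 140 to 41 before the start site, read 5′ to 3′ on the strand of the gene, with the letters GGAATTTCC in capitals.
CXCL8, chr4:73740429-73740528, plus strand: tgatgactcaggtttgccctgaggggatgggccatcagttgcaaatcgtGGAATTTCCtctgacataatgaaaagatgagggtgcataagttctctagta
CXCL1, chr4:73869253-73869352, plus strand: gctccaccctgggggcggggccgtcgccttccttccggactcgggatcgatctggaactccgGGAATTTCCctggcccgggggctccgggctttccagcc
CXCL2, chr4:74099236-74099335, minus strand: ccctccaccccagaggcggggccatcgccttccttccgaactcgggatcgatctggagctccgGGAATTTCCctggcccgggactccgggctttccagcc
CXCL3, chr4:74038730-74038829, minus strand: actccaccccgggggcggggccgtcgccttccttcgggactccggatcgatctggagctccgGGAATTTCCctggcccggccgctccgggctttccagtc
CXCL5, chr4:73998718-73998817, minus strand: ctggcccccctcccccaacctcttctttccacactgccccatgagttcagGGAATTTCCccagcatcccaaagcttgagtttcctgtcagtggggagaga
CXCL6, chr4:73836538-73836637, plus strand: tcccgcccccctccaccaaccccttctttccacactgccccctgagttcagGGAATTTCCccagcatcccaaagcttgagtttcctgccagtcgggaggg
The first of the 9 letters stood 91 bases before the start of CXCL8, 78 before CXCL1 and CXCL3, 77 before CXCL2, 90 before CXCL5 and 89 before CXCL6. Searched on both strands of the 250 bases before each start, the letters occurred in 0.428% of 27305 promoters and in 0.442% of the 10860 promoters of tested genes. They occurred in 11 of the 30 tested members of the cytokine list that have a promoter in the table, and in 6 of its 13 called members with one. A match is a description of the letters and not of binding.

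CXCL8 (interleukin 8) had 295, 15.1, 30.9, 124 and 724 CPM in DHA+BTC libraries of experiments 1 to 5, against 16.1, 14.8, 1.12, 16.7 and 4.46 CPM in OLA+BTC libraries. It was higher in DHA+BTC in each experiment, but in experiment 2 the 2 libraries were nearly level, so the groups overlapped (log2 difference 3.58 ± 0.64, adjusted p = 0.00267; without OLA+BTC 2 4.15, adjusted p = 0.000539). CXCL1, the growth-regulated chemokine alpha, had 284, 14.8, 52.3, 242 and 585 CPM in DHA+BTC libraries and 34.2, 19.5, 3.56, 57.7 and 13.4 CPM in OLA+BTC libraries (log2 difference 2.72 ± 0.54, adjusted p = 0.00617; without OLA+BTC 2 3.10, adjusted p = 0.00242). It was higher in 4 of 5 experiments and lower in experiment 2. CSF3, the granulocyte growth factor G-CSF, had 31.7, 0, 20.4, 82.9 and 434 CPM in DHA+BTC libraries and 1.01, 0.309, 0, 4.06 and 0.608 CPM in OLA+BTC libraries. DHA+BTC 5 was far above the others and DHA+BTC 2 had no read (log2 difference 4.04 ± 0.83, adjusted p = 0.00838). CXCL3 had 16.7, 4.04, 9.90, 21.8 and 176 CPM in DHA+BTC libraries and 5.28, 8.65, 0.375, 5.19 and 2.03 CPM in OLA+BTC libraries, which was not called with all libraries (log2 difference 2.26 ± 0.73, adjusted p = 0.107) and was called without OLA+BTC 2 (2.80, adjusted p = 0.0467). CXCL2 had 21.6, 0.539, 1.86, 8.47 and 32.9 CPM in DHA+BTC libraries and 3.77, 4.63, 0.187, 5.19 and 0 CPM in OLA+BTC libraries, higher in 4 of 5 experiments, and was not called (log2 difference 1.47 ± 0.68, adjusted p = 0.282; without OLA+BTC 2 2.03, adjusted p = 0.136). CXCL5 and CXCL6, added like CXCL2 after their values were seen because they share the cluster, had log2 differences of 2.09 and 1.79 (adjusted p = 0.0194 and 0.0231). Both lost the call without DHA+BTC 3, 4 or 5 or OLA+BTC 3, 4 or 5 (adjusted p from 0.0531 to 0.109). CSF3 lost it without DHA+BTC 5 (0.0661) or OLA+BTC 5 (0.0550), and CXCL8 and CXCL1 kept it in all 10 such fits. On dropping the 3 shallowest libraries CXCL8 kept its call (adjusted p = 0.0314), while CXCL1 and CSF3 did not (0.115 and 0.0786).

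Several interleukins and prostaglandin enzymes were called higher as well. IL1B, the inflammasome-processed cytokine, had 416, 21.8, 98.7, 335 and 199 CPM in DHA+BTC libraries and 33.2, 52.5, 23.6, 75.1 and 4.26 CPM in OLA+BTC libraries. The levels were higher with DHA in 4 experiments and lower in experiment 2 (log2 difference 2.36 ± 0.61, adjusted p = 0.0386; without OLA+BTC 2 2.93, adjusted p = 0.00775). IL24, of the interleukin 10 family, had 9.57, 0.270, 0.928, 41.0 and 59.4 CPM in DHA+BTC libraries and 1.01, 0, 0, 0.226 and 0 CPM in OLA+BTC libraries, all of the OLA+BTC values close to or below the floor of 3 reads (log2 difference 2.94 ± 0.65, adjusted p = 0.0161). IL33, an alarmin held in the nucleus, had 6.56, 2.70, 0, 5.79 and 9.64 CPM in DHA+BTC libraries and 0.503, 0, 0, 0.451 and 0 CPM in OLA+BTC libraries, of which 3 had no read (log2 difference 1.97 ± 0.36, adjusted p = 0.00313). PTGS2, the inducible cyclooxygenase COX-2, had 18.0, 0.270, 2.47, 10.3 and 80.3 CPM in DHA+BTC libraries and 3.27, 0.927, 0, 1.13 and 0.405 CPM in OLA+BTC libraries (log2 difference 2.32 ± 0.62, adjusted p = 0.0459). PTGES, which makes prostaglandin E, had 75.2, 30.2, 85.7, 375 and 84.3 CPM in DHA+BTC libraries and 39.3, 30.9, 33.9, 24.4 and 22.3 CPM in OLA+BTC libraries, level in experiment 2 and highest by far in DHA+BTC 4 (log2 difference 1.59 ± 0.40, adjusted p = 0.0332). CXCL12, the stromal chemokine that retains leukocytes, went the other way, with 70.5, 153, 44.8, 38.3 and 57.8 CPM in DHA+BTC libraries and 155, 194, 86.2, 100.1 and 283 CPM in OLA+BTC libraries. It was lower in DHA+BTC in 5 of 5 experiments (log2 difference -1.20 ± 0.19, adjusted p = 0.000448) and kept its call in all 10 fits without 1 library, as did IL33. Without the 3 shallowest libraries CXCL12 was still called (adjusted p = 0.0250) and IL33 was not (0.141), and IL33 also lost the call without experiment 5 (0.0697). IL1B and PTGS2 kept theirs only without DHA+BTC 2 or OLA+BTC 2, and without any 1 of the other 8 libraries their adjusted p ran from 0.0591 to 0.218. IL24 lost its call without DHA+BTC 4 or 5 or OLA+BTC 4 or 5 (0.0697 to 0.0986), and PTGES without DHA+BTC 3, 4 or 5 or OLA+BTC 3, 4 or 5 (0.0619 to 0.162).

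Across the cytokine, chemokine and NF-kB list, 14 of 36 tested genes were called higher and 1, CXCL12, lower, with a median log2 difference of 1.01. Without OLA+BTC 2 the counts were 15 and 1 and the median 1.08. The higher count fell to 5 without DHA+BTC 5, OLA+BTC 3, OLA+BTC 4 or OLA+BTC 5, and to 1 without the 3 shallowest libraries. The list's median by experiment was 1.26, -0.16, 1.14, 0.57 and 2.43 in experiments 1 to 5, so experiment 2 was the one without a rise. Of 15 tested prostaglandin and leukotriene genes, 2 were called higher, none lower, and neither stayed called without DHA+BTC 3, 4 or 5 or OLA+BTC 3, 4 or 5. Of 23 interferon-induced genes none was called (median -0.24, and -0.14 for the prostaglandin list).

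**Figure D4:**
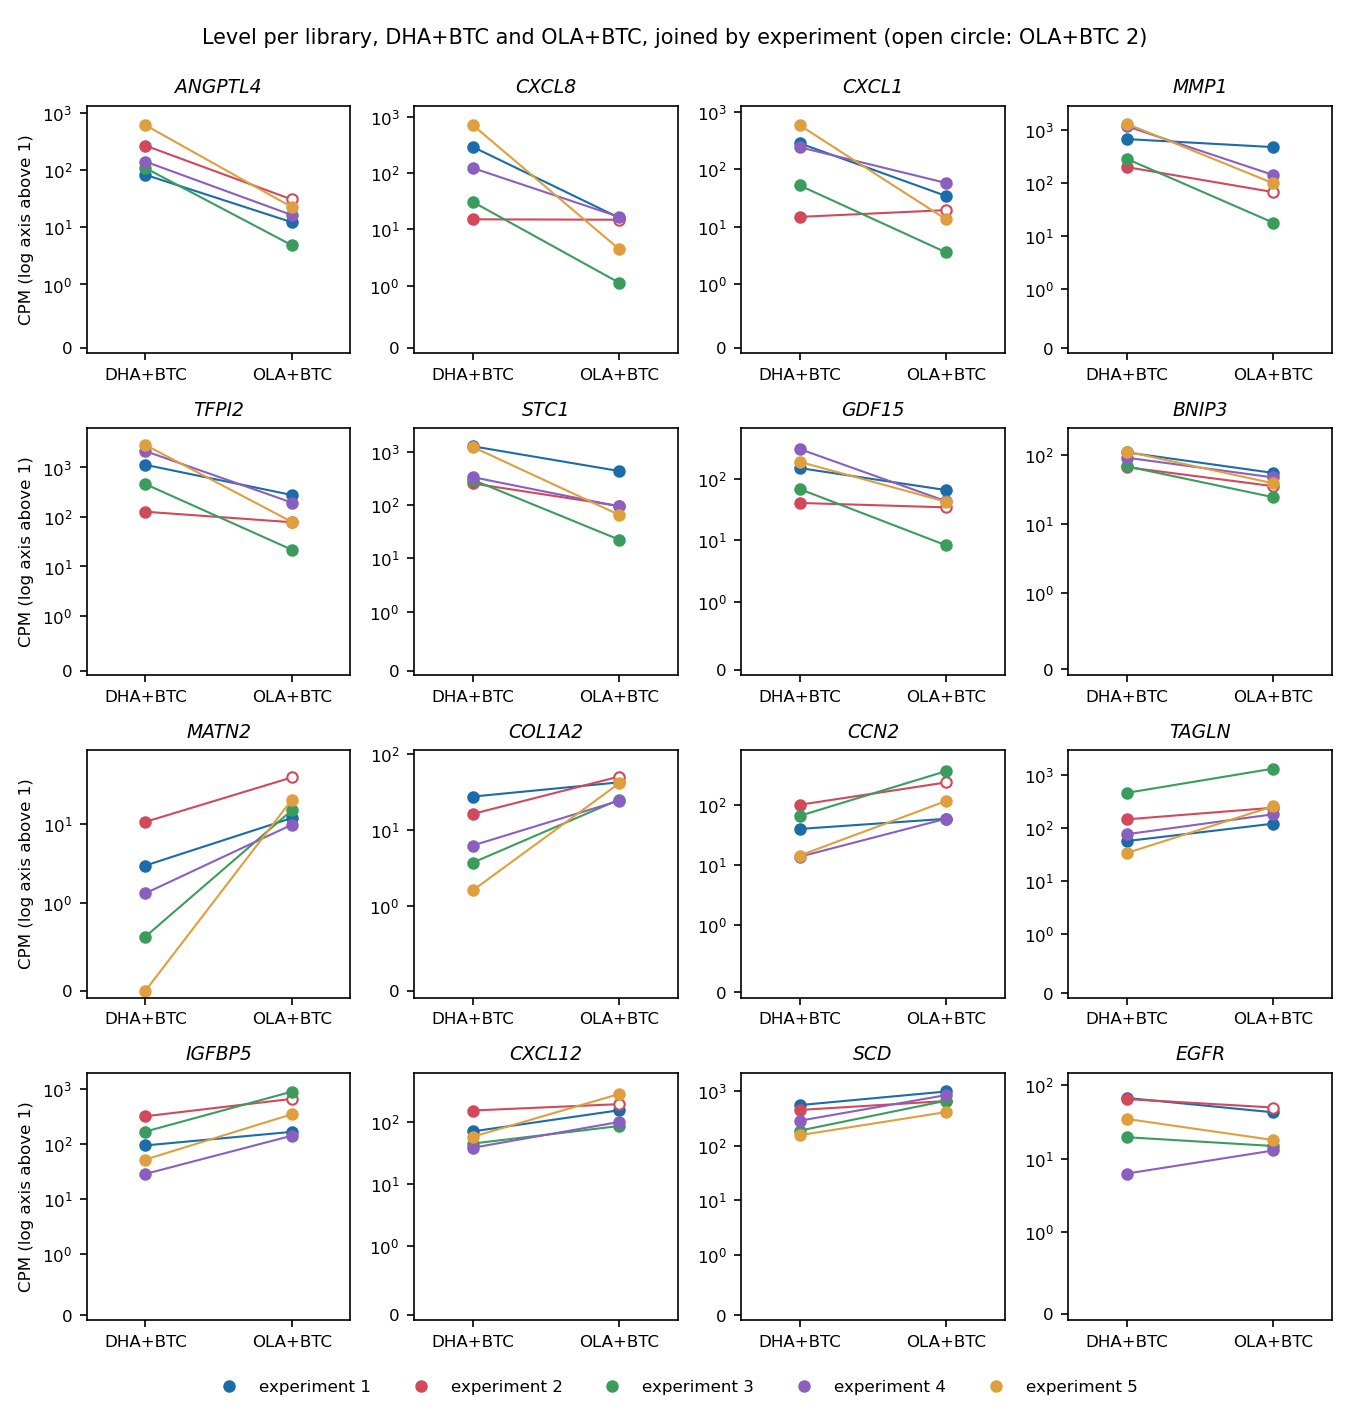
CPM of 16 genes (vertical, log axis above 1) in DHA+BTC (left) and OLA+BTC (right) libraries, 1 line per experiment, with OLA+BTC 2 as an open circle. ANGPTL4 and BNIP3 lie higher in every DHA+BTC library than in any OLA+BTC library, CXCL8 and CXCL1 are nearly level in experiment 2, and EGFR shows no common direction.

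Genes of lipid handling gave 1 large rise and a set of falls. ANGPTL4, a PPAR target whose secreted protein inhibits lipoprotein lipase, had 83.7, 272, 109.8, 143 and 620.0 CPM in DHA+BTC libraries and 12.3, 30.9, 4.87, 16.5 and 22.7 CPM in OLA+BTC libraries. Every DHA+BTC library lay above every OLA+BTC library, including experiment 2, and the fold was 11.7 on the log2(CPM + 1) scale (log2 difference 3.55 ± 0.45, adjusted p = 0.000121; without OLA+BTC 2 3.92, adjusted p = 9.91e-06). It was called in every setting run, including the fit without the block. No other gene among 25 tested fatty acid oxidation and PPAR targets was called (median -0.24). PLIN2, the lipid droplet coat protein, had 411, 401, 157, 243 and 544 CPM in DHA+BTC libraries and 164, 475, 98.5, 149 and 149.97 CPM in OLA+BTC libraries. OLA+BTC 2 stood far above the other OLA+BTC libraries, and PLIN2 was not called with it (log2 difference 0.86 ± 0.28, adjusted p = 0.110) but was without it (1.20, adjusted p = 0.00949). None of the other 17 tested lipid droplet and triglyceride genes was called in either fit.

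Of the sterol genes, 4 were called lower with DHA. MVK, mevalonate kinase, had 64.2, 161, 117, 172 and 35.3 CPM in DHA+BTC libraries and 169, 121, 350.4, 259.8 and 247 CPM in OLA+BTC libraries (log2 difference -1.18 ± 0.28, adjusted p = 0.0231; without OLA+BTC 2 -1.40, adjusted p = 0.00775). It was lower in DHA+BTC except in experiment 2. HMGCS1, which makes HMG-CoA, had 922, 786, 129, 141 and 113 CPM in DHA+BTC libraries and 1100.3, 1026, 444, 415 and 271 CPM in OLA+BTC libraries, lower in 5 of 5 experiments although the groups overlapped (log2 difference -1.04 ± 0.27, adjusted p = 0.0374). In the cholesterol synthesis and uptake list 4 of 24 tested genes were called lower and none higher, and all 24 differences were below 0, with a median of -0.60. SCD, the desaturase that makes oleate from stearate, had 555, 452, 189, 287 and 156 CPM in DHA+BTC libraries and 986, 659, 667, 847 and 414 CPM in OLA+BTC libraries (log2 difference -1.23 ± 0.28, adjusted p = 0.0179). It was 1 of 3 genes called lower among 24 of fatty acid synthesis and desaturation (none higher, median -0.49). Without OLA+BTC 2 the lower calls were 5 and 3. The cholesterol count ran from 1 (without DHA+BTC 3, OLA+BTC 3, OLA+BTC 4 or OLA+BTC 5) to 8 (without DHA+BTC 2), and the synthesis count from 0 (without DHA+BTC 5, OLA+BTC 3 or OLA+BTC 4) to 4 (without DHA+BTC 1). With median-of-ratios scaling 1 and 2 genes were called, at medians of -0.45 and -0.36, and MVK and HMGCS1 were not among them. MVK, HMGCS1 and SCD lost theirs in 4 to 6 of those fits, always among DHA+BTC 3 to 5 and OLA+BTC 3 to 5 (adjusted p from 0.0540 to 0.148). No LXR or sterol efflux gene of 12 tested was called (median -0.22).

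Among proteases and their inhibitors, the called genes were higher with DHA, apart from TIMP3. MMP1, interstitial collagenase, which cuts fibrillar collagen, had 679.7, 201, 287, 1182 and 1318 CPM in DHA+BTC libraries and 479, 68.0, 18.0, 143 and 99.5 CPM in OLA+BTC libraries. It was higher in 5 of 5 experiments, least in experiment 1, where the OLA+BTC library was itself high (log2 difference 2.55 ± 0.39, adjusted p = 0.000370; without OLA+BTC 2 2.75, adjusted p = 0.000338). TFPI2, a Kunitz-type inhibitor of plasmin and matrix proteases, had 1131, 128, 461, 2137 and 2845 CPM in DHA+BTC libraries and 278, 78.2, 21.7, 195 and 79.4 CPM in OLA+BTC libraries, the smallest contrast being in experiment 2 (log2 difference 3.13 ± 0.42, adjusted p = 0.000216; without OLA+BTC 2 3.44, adjusted p = 3.53e-05). Both genes kept the call in all 10 fits without 1 library and without the 3 shallowest (adjusted p = 0.0326 and 0.0109). MMP3, stromelysin 1, had 11.2, 0, 3.09, 74.9 and 35.3 CPM in DHA+BTC libraries and 2.26, 2.78, 0, 3.38 and 0 CPM in OLA+BTC libraries (log2 difference 2.26 ± 0.58, adjusted p = 0.0382). Its call ended without any 1 of 7 libraries, DHA+BTC 3, 4 or 5 and OLA+BTC 1, 3, 4 or 5 (0.0564 to 0.172). TIMP1, the inhibitor secreted by activated stellate cells, had 604, 255, 1118, 1554 and 1246 CPM in DHA+BTC libraries and 474, 247, 325, 612 and 386 CPM in OLA+BTC libraries, higher in 5 of 5 experiments but by little in experiments 1 and 2 (log2 difference 1.04 ± 0.22, adjusted p = 0.0126). TIMP3, the matrix-bound inhibitor, had 111, 263, 98.7, 10.7 and 41.0 CPM in DHA+BTC libraries and 131, 372, 134, 98.3 and 139 CPM in OLA+BTC libraries, lower in 5 of 5 (log2 difference -1.20 ± 0.31, adjusted p = 0.0386), and was not called without OLA+BTC 2 (adjusted p = 0.0720). It also lost the call without DHA+BTC 4 or 5 or OLA+BTC 3, 4 or 5 (0.0728 to 0.168), and TIMP1 without DHA+BTC 5, OLA+BTC 3 or OLA+BTC 4 (0.0566 to 0.0782). SERPINB2, plasminogen activator inhibitor 2, had 9.30, 0.270, 0.928, 7.58 and 38.5 CPM in DHA+BTC libraries and 0.252, 0.309, 0.375, 0 and 0 CPM in OLA+BTC libraries (log2 difference 2.38 ± 0.54, adjusted p = 0.0177), a call that ended without DHA+BTC 4 or 5 or OLA+BTC 4 or 5 (0.0567 to 0.104). Of 16 tested MMP and TIMP genes 3 were higher and 1 lower (3 and 0 without OLA+BTC 2), and of 12 in plasminogen activation and TFPI 3 were higher (median 0.20), with 1 left without OLA+BTC 5.

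Matrix genes were lower for a few members and not for the collagens as a whole. MATN2, the matrix filament protein matrilin 2, had 3.01, 10.8, 0.619, 1.34 and 0 CPM in DHA+BTC libraries and 12.1, 39.5, 15.2, 9.92 and 20.7 CPM in OLA+BTC libraries, lower in 5 of 5 experiments, and only DHA+BTC 2 reached the OLA+BTC range (log2 difference -2.69 ± 0.38, adjusted p = 0.000246; without OLA+BTC 2 -2.85, adjusted p = 0.000315). COL1A2, the alpha 2 chain of type I collagen, had 27.3, 16.2, 3.71, 6.24 and 1.61 CPM in DHA+BTC libraries and 42.0, 50.1, 24.9, 24.1 and 40.7 CPM in OLA+BTC libraries, lower in 5 of 5 (log2 difference -2.09 ± 0.42, adjusted p = 0.00675; without OLA+BTC 2 -2.17, adjusted p = 0.00949). Its partner chain COL1A1 had 530.1, 1328, 298, 233 and 1504 CPM in DHA+BTC libraries and 794, 1044, 617, 315 and 2257 CPM in OLA+BTC libraries, higher in experiment 2 and not called (unadjusted 95% interval of the log2 difference -0.92 to 0.00, adjusted p = 0.315). COL3A1, of type III collagen, was not called either (interval -1.27 to -0.16, adjusted p = 0.179). SPARC, a collagen-binding glycoprotein, had 307, 417, 187, 125 and 195 CPM in DHA+BTC libraries and 396, 721, 523, 336 and 546 CPM in OLA+BTC libraries, lower in 5 of 5 (log2 difference -1.11 ± 0.24, adjusted p = 0.0142). THBS1, thrombospondin 1, an activator of latent TGF-beta, had 12.8, 23.5, 8.04, 4.46 and 0 CPM in DHA+BTC libraries and 21.6, 38.3, 35.2, 11.7 and 13.4 CPM in OLA+BTC libraries (log2 difference -1.69 ± 0.38, adjusted p = 0.0161). MATN2 and COL1A2 kept the call in all 10 fits without 1 library. Without the 3 shallowest libraries MATN2 was called (adjusted p = 0.00391) and COL1A2 was not (0.115), nor was COL1A2 without experiment 3 or 5. SPARC and THBS1 lost it in those without DHA+BTC 5, OLA+BTC 3 or OLA+BTC 4, THBS1 also without OLA+BTC 5 (0.0545 to 0.0723). Of 21 tested collagens 1 was lower and none higher (median -0.34). COL7A1, the chain of anchoring fibrils, had 70.3, 55.0, 25.1, 58.8 and 33.7 CPM in DHA+BTC libraries and 40.3, 37.7, 8.43, 15.3 and 27.0 CPM in OLA+BTC libraries, higher in 5 of 5 experiments. It just missed the threshold with all libraries (log2 difference 0.99 ± 0.27, adjusted p = 0.0515) and was called higher without OLA+BTC 2 (1.10, adjusted p = 0.0454), by edgeR (0.0238) and under median-of-ratios scaling (0.0273), so that each of these fits had 1 collagen higher and 1 lower. Without DHA+BTC 1 the counts were 2 higher and 3 lower, and without the 3 shallowest libraries no collagen was called and the median was 0.02. Of 35 other matrix and collagen-modifying genes 4 were lower and none higher (median -0.15), 5 without OLA+BTC 2 and 1 without DHA+BTC 5, OLA+BTC 3 or OLA+BTC 4. Without the 3 shallowest libraries 1 was lower and the median was 0.06.

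Of the contractile genes, 3 were called lower with DHA. TAGLN (transgelin, an actin-bundling protein of smooth muscle) had 56.6, 145, 459, 76.2 and 33.7 CPM in DHA+BTC libraries and 121, 241, 1314, 181 and 257 CPM in OLA+BTC libraries. In both groups experiment 3 was the highest, and within each experiment DHA+BTC was the lower (log2 difference -1.49 ± 0.25, adjusted p = 0.00193; without OLA+BTC 2 -1.56, adjusted p = 0.00242). CALD1, caldesmon, had 261, 297, 80.4, 25.0 and 40.2 CPM in DHA+BTC libraries and 355, 498, 161, 74.4 and 91.8 CPM in OLA+BTC libraries, lower in 5 of 5 (log2 difference -0.98 ± 0.19, adjusted p = 0.00477). On dropping the 3 shallowest libraries TAGLN stayed called (adjusted p = 0.0326) and CALD1 did not (0.112). ACTA2, the smooth muscle actin that marks activated stellate cells, had 27.1, 20.5, 37.1, 25.0 and 14.5 CPM in DHA+BTC libraries and 34.97, 34.6, 129.6, 40.4 and 108 CPM in OLA+BTC libraries. It was lower in 5 of 5 but near the threshold (log2 difference -1.27 ± 0.33, adjusted p = 0.0420), and it was not called under median-of-ratios scaling, by edgeR (adjusted p = 0.100) or without DHA+BTC 3, 4 or 5 or OLA+BTC 3, 4 or 5 (0.0639 to 0.185). Of the 19 tested contractile and activation genes 3 were lower and none higher, with a median of -0.78 (4 lower without OLA+BTC 2, and 2 to 6 over the fits without 1 library, the most without DHA+BTC 2).

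In the list of the YAP/TEAD programme, by which stretched or spread cells regulate growth, 3 genes were called lower. They were the targets CCN2 and ANKRD1 and a cofactor of TEAD. CCN2 (connective tissue growth factor) and ANKRD1 (a muscle ankyrin repeat protein) are shown with the stretch before the start that holds the TEAD letters GGAATG in capitals, since they are the called members with such letters. They are from RefSeq (GRCh38.p14), bases 230 to 81 before the start, 5′ to 3′ on the strand of the gene.
CCN2, chr6:131951453-131951602, minus strand: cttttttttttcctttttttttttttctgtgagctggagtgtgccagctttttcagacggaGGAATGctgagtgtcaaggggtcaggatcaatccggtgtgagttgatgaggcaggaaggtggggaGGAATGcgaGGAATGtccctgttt
ANKRD1, chr10:90921168-90921317, minus strand: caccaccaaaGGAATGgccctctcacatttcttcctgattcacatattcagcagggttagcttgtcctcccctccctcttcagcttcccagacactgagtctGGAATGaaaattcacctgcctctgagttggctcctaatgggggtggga
The letters began 169, 104 and 95 bases before the start of CCN2 and 220 and 128 bases before that of ANKRD1. On either strand of the 250 bases before the start, these 6 letters occurred in 11.9% of all 27305 promoters, in 9.60% of those of tested genes, in 4 of 17 tested list members with a promoter and in 2 of 3 called ones. CCN2 had 39.9, 101, 65.9, 13.8 and 14.5 CPM in DHA+BTC libraries and 58.9, 236, 365, 59.1 and 116 CPM in OLA+BTC libraries, lower in 5 of 5 experiments and least so in experiment 1 (log2 difference -1.83 ± 0.27, adjusted p = 0.000313; without OLA+BTC 2 -1.87, adjusted p = 0.000557). ANKRD1 had 3.28, 13.5, 12.4, 0 and 12.8 CPM in DHA+BTC libraries and 13.1, 36.2, 55.6, 6.32 and 10.7 CPM in OLA+BTC libraries, lower in 4 experiments and slightly higher in experiment 5 (log2 difference -1.56 ± 0.35, adjusted p = 0.0188). Both kept the call without the 3 shallowest libraries (adjusted p = 0.0209 and 0.00545). CCN2 kept it in all 10 fits without 1 library, and ANKRD1 lost it without DHA+BTC 3 or 4 or OLA+BTC 3 or 4 (0.0567 to 0.0882) and in edgeR (0.0829). The YAP and TEAD list holds the factors and their cofactors as well as targets. Of its 22 tested genes 3 were called lower and none higher, with 20 of 22 below 0 and a median of -0.41. Leaving out OLA+BTC 2 did not change that count, and over the other fits without 1 library it ran from 1 (without DHA+BTC 4, OLA+BTC 3 or OLA+BTC 4) to 6 (without OLA+BTC 1).

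Of the ErbB receptors, EGFR, ERBB2 and ERBB3 were tested and none was called. ERBB4, the other receptor of BTC, was not among the tested genes of the list, so nothing is said of it. EGFR had 66.7, 64.4, 19.5, 6.24 and 34.5 CPM in DHA+BTC libraries and 42.5, 49.4, 14.8, 12.9 and 17.8 CPM in OLA+BTC libraries, higher in 4 experiments and lower in experiment 4 (95% interval of the log2 difference -0.24 to 0.79, adjusted p = 0.628). ERBB2, the ligandless partner receptor, had 23.8, 33.4, 22.0, 19.6 and 24.1 CPM in DHA+BTC libraries and 35.5, 35.5, 36.7, 36.1 and 46.0 CPM in OLA+BTC libraries. Its groups did not overlap, with all DHA+BTC libraries the lower, yet it was not called (interval -1.08 to -0.16, adjusted p = 0.157, and 0.163 without OLA+BTC 2). ERBB3 was at or under 3.09 CPM in every library of both groups (interval -1.16 to 0.26). None of the 10 tested genes of the ErbB list, which also holds ADAM10, ADAM17 and ERRFI1, was called (median -0.04). The difference that these intervals allow is given because an adjusted p over the threshold does not show equal levels.

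Genes that ERK signalling induces gave 2 rises. IER3, an early response gene that limits ERK inactivation, had 8284, 2867, 6329.9, 15156 and 16110.1 CPM in DHA+BTC libraries and 4245, 1171, 1414, 2516 and 2551 CPM in OLA+BTC libraries, higher in 5 of 5 experiments (log2 difference 1.93 ± 0.28, adjusted p = 0.000246; without OLA+BTC 2 1.99, adjusted p = 0.000424). PHLDA1, another growth factor-induced gene, had 346, 284, 110.4, 117 and 366 CPM in DHA+BTC libraries and 278, 162, 36.7, 65.2 and 124 CPM in OLA+BTC libraries (log2 difference 1.02 ± 0.23, adjusted p = 0.0161). These 2 were the called genes among 24 ERK-induced and feedback genes (none lower, median 0.10), and none of 23 AP-1 and immediate early genes was called (median 0.05). Leaving out DHA+BTC 3, DHA+BTC 5, OLA+BTC 3, OLA+BTC 4 or OLA+BTC 5 ended the call of PHLDA1 (0.0572 to 0.0877) and left IER3 alone. Among other receptor tyrosine kinases and their ligands 3 of 29 tested genes were lower and none higher (median -0.23). IGFBP5, which binds insulin-like growth factors, had 95.7, 325, 171, 29.0 and 53.0 CPM in DHA+BTC libraries and 169, 674, 913, 144 and 354 CPM in OLA+BTC libraries, lower in 5 of 5 (log2 difference -1.85 ± 0.26, adjusted p = 0.000236; without OLA+BTC 2 -1.90, adjusted p = 0.000324). KIT, the stem cell factor receptor, had 4.10, 9.98, 1.86, 1.78 and 3.21 CPM in DHA+BTC libraries and 11.6, 20.7, 7.49, 6.32 and 50.1 CPM in OLA+BTC libraries (log2 difference -1.77 ± 0.44, adjusted p = 0.0318), a call that ended without DHA+BTC 3, 4 or 5 or OLA+BTC 3, 4 or 5 (0.0516 to 0.154). That list's count was 3 without OLA+BTC 2, 1 without DHA+BTC 4, DHA+BTC 5, OLA+BTC 3 or OLA+BTC 4, and 4 without DHA+BTC 2.

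In the TGF-beta superfamily 2 secreted ligands rose. GDF15, a stress-induced ligand, had 149.6, 40.4, 68.0, 305 and 189 CPM in DHA+BTC libraries and 65.4, 34.3, 8.24, 43.1 and 42.2 CPM in OLA+BTC libraries, close in experiment 2 and apart in the other 4 (log2 difference 1.85 ± 0.29, adjusted p = 0.000585; without OLA+BTC 2 2.26, adjusted p = 2.81e-06). INHBA, the chain of activin A, had 247, 70.1, 43.6, 33.4 and 85.9 CPM in DHA+BTC libraries and 91.1, 54.7, 15.4, 11.7 and 3.85 CPM in OLA+BTC libraries, higher in 5 of 5 (log2 difference 1.77 ± 0.35, adjusted p = 0.00617; without OLA+BTC 2 1.93, adjusted p = 0.00485). Both kept the call in all 10 fits without 1 library, and without the 3 shallowest GDF15 did (adjusted p = 0.0314) and INHBA did not (0.0995). TGFB1, the main profibrotic ligand, had 16.4, 23.5, 33.1, 73.5 and 28.1 CPM in DHA+BTC libraries and 25.4, 8.96, 8.24, 21.2 and 35.3 CPM in OLA+BTC libraries, higher in 3 experiments and lower in 2, without a call (interval 0.12 to 1.48, adjusted p = 0.229). TGFB2 had an interval of -1.56 to -0.10 (adjusted p = 0.245). Of 29 tested ligands, receptors and targets 2 were higher and none lower (median -0.16).

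Of the hypoxia, glycolysis and mitophagy genes, 8 were called higher with DHA. STC1, the secreted glycoprotein stanniocalcin 1, had 1281, 256, 300.3, 337 and 1248 CPM in DHA+BTC libraries and 439, 96.7, 22.5, 94.5 and 65.9 CPM in OLA+BTC libraries, higher in 5 of 5 experiments, with experiment 1 high in both groups (log2 difference 2.53 ± 0.41, adjusted p = 0.000782; without OLA+BTC 2 2.73, adjusted p = 0.000671). BNIP3, a mitophagy receptor, had 110.2, 67.1, 69.0, 92.3 and 113 CPM in DHA+BTC libraries and 55.4, 35.5, 24.5, 47.6 and 39.1 CPM in OLA+BTC libraries. Its groups did not overlap (log2 difference 1.16 ± 0.21, adjusted p = 0.00291; without OLA+BTC 2 1.20, adjusted p = 0.00450). ENO2, the neuronal enolase of glycolysis, had 161, 92.5, 152, 213 and 240.1 CPM in DHA+BTC libraries and 66.7, 51.9, 55.1, 129 and 141 CPM in OLA+BTC libraries, higher in 5 of 5 (log2 difference 1.00 ± 0.17, adjusted p = 0.00192). These 3 kept their call in all 10 fits without 1 library and without the 3 shallowest (adjusted p = 0.0105, 0.0394 and 0.0158). Of 36 tested genes 8 were called higher and none lower, and 32 lay above 0, with a median of 0.49 (0.53 and 7 called without OLA+BTC 2). The fewest, 3, were called without DHA+BTC 5 or OLA+BTC 5. The list's median was above 0 in each experiment, at 0.75, 0.38, 0.69, 0.38 and 1.05 in experiments 1 to 5.

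Among genes of oxidant defence and stress, SLC7A11, the cystine importer, had 231, 76.3, 19.8, 23.6 and 43.4 CPM in DHA+BTC libraries and 73.7, 51.9, 12.0, 8.57 and 4.86 CPM in OLA+BTC libraries, higher in 5 of 5 (log2 difference 1.43 ± 0.27, adjusted p = 0.00373). HMOX1, haem oxygenase 1, had 95.1, 119.7, 187, 237 and 409 CPM in DHA+BTC libraries and 81.0, 84.7, 53.8, 58.0 and 112 CPM in OLA+BTC libraries, with the smallest contrasts in experiments 1 and 2 (log2 difference 1.27 ± 0.25, adjusted p = 0.00670). Both kept the call in all 10 fits without 1 library and lost it without the 3 shallowest (SLC7A11 adjusted p = 0.143, HMOX1 0.239). DDIT3, the stress factor CHOP, had 63.4, 41.0, 52.0, 67.3 and 190.3 CPM in DHA+BTC libraries and 49.6, 34.3, 21.2, 25.0 and 58.2 CPM in OLA+BTC libraries (log2 difference 0.99 ± 0.21, adjusted p = 0.0128), and lost the call without DHA+BTC 5, OLA+BTC 4 or OLA+BTC 5 (0.0588 to 0.0769). Of 32 tested NRF2, iron and lipid peroxidation genes 3 were higher and none lower (median 0.25, 4 higher without OLA+BTC 2 and 2 without DHA+BTC 5, OLA+BTC 3 or OLA+BTC 5), and none was called without the 3 shallowest libraries. Of 25 ATF4 and amino acid stress genes DDIT3 was the 1 called (median 0.16), with 4 called without DHA+BTC 1 and none without DHA+BTC 5, OLA+BTC 4 or OLA+BTC 5, and none of 23 endoplasmic reticulum chaperones was (median -0.02).

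A few cell cycle genes were called lower, with calls that rested on single libraries. TOP2A, the topoisomerase of dividing cells, had 651, 1629, 177, 41.9 and 108 CPM in DHA+BTC libraries and 949.8, 2062, 273, 188 and 369 CPM in OLA+BTC libraries, lower in 5 of 5 experiments, although levels differed far more between experiments than between groups (log2 difference -1.08 ± 0.24, adjusted p = 0.0161). MKI67, the proliferation antigen Ki-67, had 160.2, 337, 49.2, 15.2 and 51.4 CPM in DHA+BTC libraries and 243, 342, 55.4, 48.9 and 117 CPM in OLA+BTC libraries and was not called (interval -1.17 to -0.27, adjusted p = 0.0872, and 0.0470 without DHA+BTC 2). Of 32 tested mitosis and spindle genes 5 were lower and none higher. All 32 differences were below 0, with a median of -0.70 (5 lower and -0.78 without OLA+BTC 2). No gene of that list was called without DHA+BTC 4, DHA+BTC 5, OLA+BTC 4 or OLA+BTC 5, where TOP2A had an adjusted p of 0.0782 to 0.0841, and 14 were called without DHA+BTC 2. With median-of-ratios scaling 1 was called and the median was -0.55. In DNA replication and S phase 2 of 35 tested genes were lower (median -0.41), none without OLA+BTC 3, OLA+BTC 4 or OLA+BTC 5. CDKN1A, the CDK inhibitor p21, had 341, 104, 375, 635 and 389.5 CPM in DHA+BTC libraries and 227, 104, 91.8, 331 and 154 CPM in OLA+BTC libraries, level in experiment 2 (log2 difference 0.97 ± 0.22, adjusted p = 0.0161), and lost the call without DHA+BTC 3, DHA+BTC 5, OLA+BTC 3, OLA+BTC 4 or OLA+BTC 5 (0.0604 to 0.0798). It was the 1 gene called of 21 G1 cyclins and CDK inhibitors (median -0.11).

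Adhesion and vasoactive genes gave calls in both directions. ITGA2, the alpha chain of a collagen-binding integrin, had 265, 184, 39.9, 71.8 and 215 CPM in DHA+BTC libraries and 219, 45.7, 7.12, 19.6 and 45.2 CPM in OLA+BTC libraries, higher in 5 of 5 (log2 difference 1.73 ± 0.34, adjusted p = 0.00545). ITGA5, of the fibronectin receptor, had 80.1, 54.5, 111, 114 and 100.4 CPM in DHA+BTC libraries and 60.1, 28.1, 26.6, 33.4 and 49.7 CPM in OLA+BTC libraries, likewise higher in 5 of 5 (log2 difference 1.22 ± 0.22, adjusted p = 0.00313). These were the 2 called of 18 tested integrins (median -0.14), and both were called in all 10 fits without 1 library. Without the 3 shallowest libraries no integrin was called (ITGA2 adjusted p = 0.0995, ITGA5 0.0744). APLN, the vasodilator peptide apelin, had 2.46, 11.1, 44.2, 4.46 and 0 CPM in DHA+BTC libraries and 11.8, 49.7, 87.8, 48.0 and 8.51 CPM in OLA+BTC libraries, lower in 5 of 5 (log2 difference -2.27 ± 0.48, adjusted p = 0.0121), with the call lost without DHA+BTC 5 (0.0740) or OLA+BTC 4 (0.0604). ADRA1B, an alpha adrenergic receptor, had 1.09, 9.98, 8.66, 0.891 and 0 CPM in DHA+BTC libraries and 3.27, 17.3, 36.9, 13.5 and 8.51 CPM in OLA+BTC libraries, lower in 5 of 5 (log2 difference -1.99 ± 0.38, adjusted p = 0.00455), and kept the call in all 10, but not without the 3 shallowest libraries (0.170). EDN1, endothelin 1, which contracts stellate cells, had 2.19, 5.66, 3.71, 1.78 and 1.61 CPM in DHA+BTC libraries and 3.52, 24.1, 29.0, 2.93 and 6.08 CPM in OLA+BTC libraries (log2 difference -1.41 ± 0.36, adjusted p = 0.0366) and was called without 3 single libraries, DHA+BTC 1, DHA+BTC 4 and OLA+BTC 1. Without any 1 of the other 7, OLA+BTC 2 among them (0.0655), its adjusted p was up to 0.126. The vasoactive list had 1 gene higher (STC1) and 3 lower of 17 tested, with a median of -0.44 (2 lower without OLA+BTC 2, 1 without DHA+BTC 5 or OLA+BTC 4).

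Of the remaining large falls, OXTR, the oxytocin receptor, had 20.2, 31.0, 9.59, 0.891 and 0.803 CPM in DHA+BTC libraries and 25.4, 123, 98.1, 13.8 and 10.5 CPM in OLA+BTC libraries, lower in 5 of 5 (log2 difference -2.23 ± 0.40, adjusted p = 0.00267). MEST, an imprinted hydrolase-like gene, had 11.5, 17.5, 2.78, 0.891 and 0.803 CPM in DHA+BTC libraries and 16.4, 74.2, 42.7, 10.4 and 10.5 CPM in OLA+BTC libraries (log2 difference -2.26 ± 0.45, adjusted p = 0.00674). SERPINB9, the granzyme B inhibitor, had 3.83, 3.78, 1.55, 0.446 and 0 CPM in DHA+BTC libraries and 8.30, 5.56, 11.4, 6.54 and 19.9 CPM in OLA+BTC libraries, without overlap (log2 difference -2.09 ± 0.37, adjusted p = 0.00267; without OLA+BTC 2 -2.39, adjusted p = 0.000712). PLEKHA7, a junction protein, did not overlap either, with 1.64, 2.43, 0.928, 0 and 0 CPM in DHA+BTC libraries and 4.28, 6.49, 6.93, 6.32 and 8.92 CPM in OLA+BTC libraries (log2 difference -2.07 ± 0.39, adjusted p = 0.00382). KIRREL3, an adhesion molecule of the nephrin family, had a log2 difference of -2.17 and CPA4, a carboxypeptidase, one of -2.36 (adjusted p = 0.000448 and 0.01002). RARRES2, the chemokine-like chemerin and a retinoid-responsive gene, had 0.547, 0, 1.86, 4.01 and 0 CPM in DHA+BTC libraries and 0.755, 1.54, 7.68, 23.0 and 19.5 CPM in OLA+BTC libraries, low in both groups in experiments 1 and 2 (log2 difference -1.95 ± 0.47, adjusted p = 0.0277). It was the 1 gene called of 15 in stellate quiescence and retinoid handling (median 0.01). One further large rise was DNER, a transmembrane Notch ligand-like protein, with 16.4, 8.36, 7.11, 30.3 and 63.4 CPM in DHA+BTC libraries and 10.3, 2.78, 0, 1.58 and 3.85 CPM in OLA+BTC libraries (log2 difference 2.46 ± 0.43, adjusted p = 0.00235). OXTR, MEST, SERPINB9, PLEKHA7, KIRREL3 and DNER kept the call in all 10 fits without 1 library. CPA4 lost it without DHA+BTC 5 (0.0690) or OLA+BTC 5 (0.0660), and RARRES2 without DHA+BTC 3, DHA+BTC 5, OLA+BTC 3, OLA+BTC 4 or OLA+BTC 5 (0.0540 to 0.136). Of these 8 genes KIRREL3 alone was still called without the 3 shallowest libraries (0.0252).

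**Figure D5:**
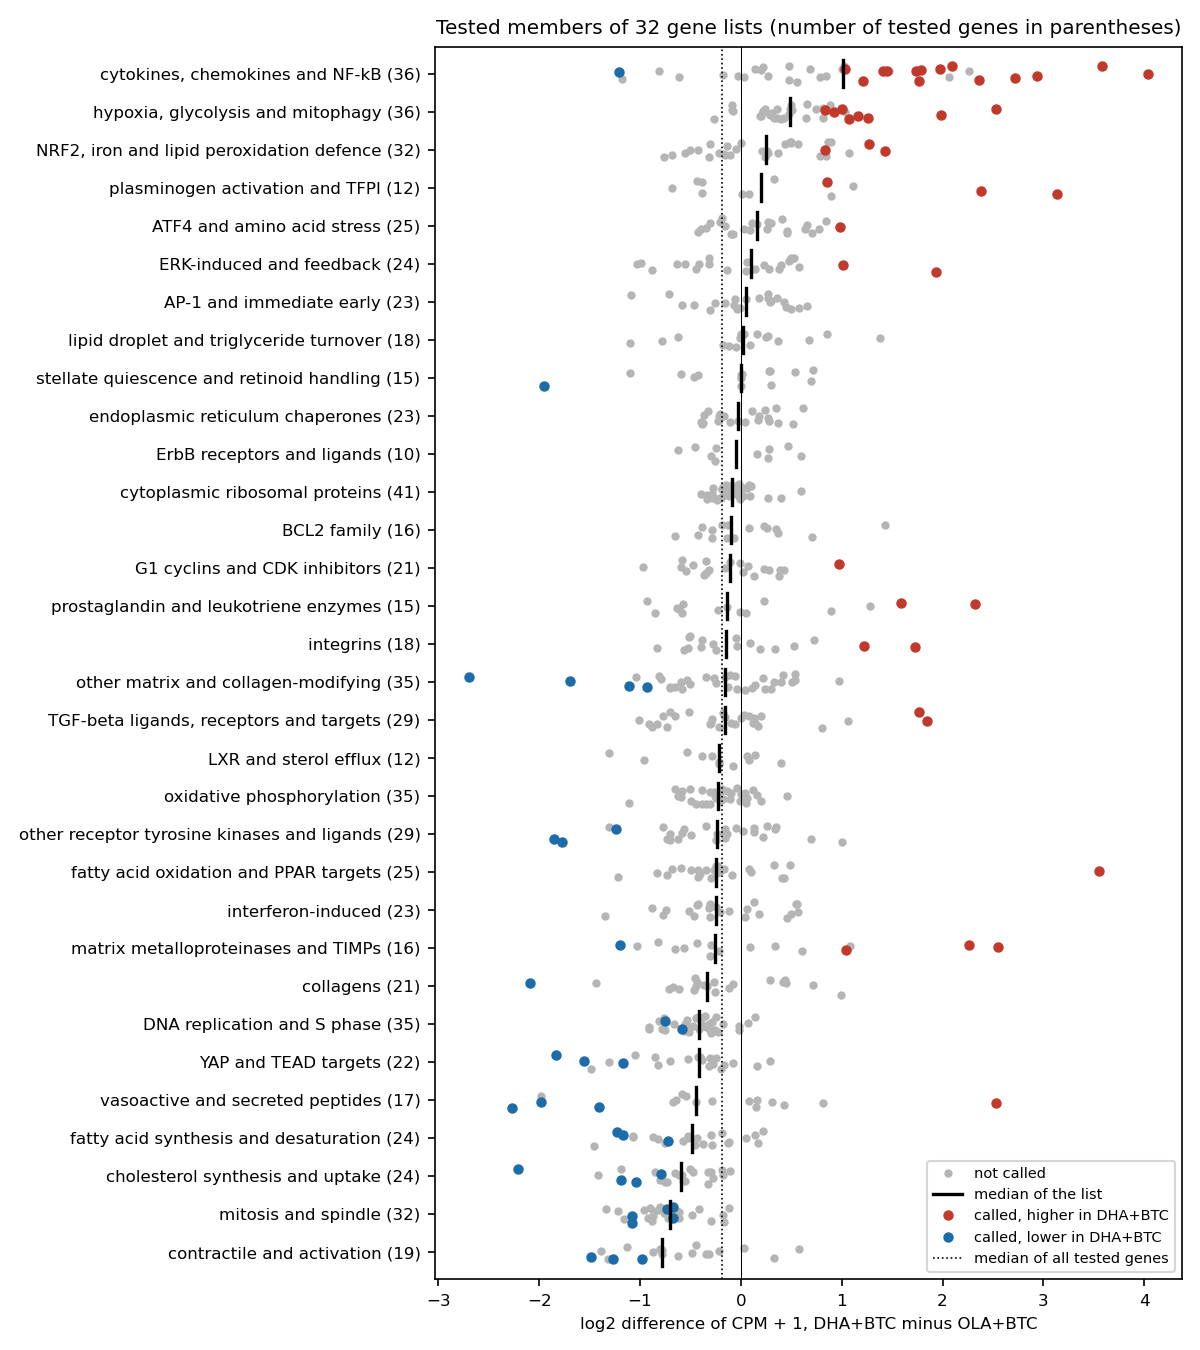
Log2 difference of CPM + 1, DHA+BTC minus OLA+BTC (horizontal), for each tested member of 32 gene lists, with list medians (black bars) and the median of all tested genes (dotted, -0.18). The cytokine, chemokine and NF-kB list has the highest median (1.01) and most rises (red), and the contractile list the lowest median (-0.78).

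The ribosomal, oxidative phosphorylation and BCL2 family lists held no call. With all libraries, none of 41 cytoplasmic ribosomal protein genes (median -0.09), 35 oxidative phosphorylation genes (median -0.23) and 16 BCL2 family genes (median -0.10) was called, although BCL2A1 was without OLA+BTC 2 and up to 2 oxidative phosphorylation genes were without DHA+BTC 1. Reads of mitochondrially encoded genes made up 1.99% to 2.90% of the DHA+BTC libraries and 1.90% to 2.92% of the OLA+BTC libraries. The 10 most abundant genes took 6.62% to 12.5% of reads in DHA+BTC libraries and 5.401% to 9.74% in OLA+BTC libraries.

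A further question was whether the difference between the fatty acids was itself altered by BTC, so the DHA minus oleic acid difference under BTC was tested against that without BTC. No gene was called by limma (smallest adjusted p 0.999) or by edgeR, with 572 and 552 genes at an unadjusted p under 0.05 among 15137. ANGPTL4 had 214 ± 171 CPM in DHA+Veh and 15.2 ± 6.23 CPM in OLA+Veh libraries (SD, n = 5 each), and the change of its difference with BTC had a 95% interval of -1.35 to 1.25 log2 units. CXCL8 had 164 ± 191 CPM in DHA+Veh and 6.30 ± 5.62 CPM in OLA+Veh libraries (interval -2.27 to 1.45). MMP1 had 611 ± 359 CPM in DHA+Veh and 134 ± 151 CPM in OLA+Veh libraries (interval -1.28 to 0.95). These 3 intervals include 0 and also changes of over 1 log2 unit downward, and for ANGPTL4 and CXCL8 upward as well. Changes of that size in the contrast with BTC were therefore not excluded. For CCN2 the interval of the change was -1.67 to -0.12 and for SERPINB9 -2.51 to -0.34. Both intervals, unadjusted, lie below 0, and the adjusted p was 0.999 for each (limma). The 572 and 552 genes under an unadjusted p of 0.05 (limma and edgeR) were a smaller share than 0.05 of the 15137 tested. Such intervals arise without an effect, so these 2 do not show one.

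Cells given BTC after vehicle, without a fatty acid, help place the levels and are given as a description. ANGPTL4 averaged 246 ± 221 CPM in DHA+BTC, 17.5 ± 9.92 in OLA+BTC and 8.96 ± 6.55 in Veh+BTC libraries (SD, n = 5 each). For TFPI2 the averages were 1340.2 ± 1139, 130.4 ± 104 and 107 ± 79.8 CPM in the same order of groups. COL1A2 stood at 11.0 ± 10.7 CPM in DHA+BTC, 36.4 ± 11.4 in OLA+BTC and 29.9 ± 24.9 in Veh+BTC libraries, and IGFBP5 at 135 ± 119, 451 ± 334 and 474 ± 337 CPM. For these 4 genes the OLA+BTC average was nearer to the Veh+BTC average than the DHA+BTC average was. They were picked from the genes called between DHA+BTC and OLA+BTC. How many other genes share this order was not counted, so it does not describe genes in general. No test was made against Veh+BTC.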

How the data were processed

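RNA of 30 LX2 cultures (6 groups in 5 experiments) was sequenced as 3′ tags with the QuantSeq 3' mRNA kit, per the labels' protocols. The authors deposited a table of CPM, with STAR 2.5.3a and HTSeq 0.6.0 named in the submitters' processing notes; genome build, annotation release and strand setting are not stated there, so overlapping, antisense or near-identical genes may share reads. Of 61597 genes, 42046 (68.3%) have a symbol, and 13900 of these were tested. Every CPM value was a whole multiple of 1 read within 0.01 read (100.0% of values), which gave read totals and floors of 3 reads.

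Genes with at least 1 CPM in at least 5 libraries (15137) were fitted on log2(CPM + 1) with limma 3.58.1 (R 4.3.3), trend on, all 30 libraries, 6 groups, the experiment as block, and Benjamini-Hochberg adjustment at 0.05; 95% intervals are unadjusted. DHA+BTC and OLA+BTC were the 1 pair of compounds compared, at matched dose and times. The experiment number pairs libraries, being a labelled cohort, and deviations of same-experiment libraries correlated at 0.119 to 0.743 in 75 pairs (0.346 to 0.564 for DHA+BTC with OLA+BTC). The 360 pairs of different experiments ran from -0.743 to 0.696, so the ranges overlapped, with a median of -0.199 against 0.507 within experiments. Alternatives used edgeR 4.0.16 quasi-likelihood and DESeq2 1.42.0 on recovered reads (165 calls by edgeR), other scalings, filters and pseudocounts, and fits without single libraries. The limma and edgeR fits were also run on simulated data, with results not given here. Genes named are the 12 largest rises and 12 largest falls called with and without OLA+BTC 2, and up to 5 of smallest p per list. Gene calls that OLA+BTC 2 ended or added, genes furthest above the other libraries in OLA+BTC 2 and genes of smallest p in the interaction were also named. So was a fixed set of receptors, collagens and TGF-beta ligands. CXCL2, CXCL5 and CXCL6 were added after their values were seen, and the text prints only part of that pool. The comparison, gene lists and marker lists were chosen with earlier results of these data known. Promoter sequences are from RefSeq.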

Additional observations from a re-analysis of the deposited data

Results flagged for a closer look

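In groups of 5, a library was set apart where its gap to the next value exceeded 0.71 of the range of the group. Normally distributed values pass this in about 1 of 20 groups, a rate that need not hold for CPM values or for chosen genes. Of 146 groups (73 genes named in the text, DHA+BTC and OLA+BTC), 23 had such a library, always the highest. The following shares of the range were the gaps. DHA+BTC 5 was set apart for CSF3 (0.809), CXCL3 (0.896), CXCL6 (0.798), PTGS2 (0.778), DDIT3 (0.824) and SERPINB2 (0.764), and DHA+BTC 4 for PTGES (0.839). DHA+BTC 2 was set apart for CXCL12 (0.720), MATN2 (0.721) and KIT (0.717), DHA+BTC 3 for TAGLN (0.737) and APLN (0.750), and DHA+BTC 1 for INHBA (0.754) and SLC7A11 (0.732).

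Among OLA+BTC libraries, OLA+BTC 1 was set apart for MMP1 (0.730), STC1 (0.822), ITGA2 (0.818) and IL24 (0.776), OLA+BTC 3 for TAGLN (0.886), OLA+BTC 4 for CSF3 (0.752) and OLA+BTC 5 for ERBB2 (0.883). OLA+BTC 2 was set apart for 2 genes, PLIN2 (0.825) and TIMP3 (0.850).

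The summed levels of 18 marker lists were treated alike in both groups, and 11 of 36 groups had a library set apart, always the highest. DHA+BTC 5 was set apart for adipocyte (0.812) and lung epithelial (0.854) markers, DHA+BTC 1 for T and NK cell (0.834) and intestinal epithelial (0.721) markers, and DHA+BTC 2 for pluripotent and germ cell markers (a gap of 1.0 of the range, from a summed 0.270 CPM against 0 in the others). FABP4 made up most of the adipocyte sum in DHA+BTC 5 (131 CPM), and IL7R most of the T and NK cell sum in DHA+BTC 1 (457 CPM). OLA+BTC 2 was set apart for intestinal epithelial (0.774), B cell (0.864), myeloid (0.941), shared leukocyte (0.831), erythroid (0.956) and adipocyte (0.964) markers.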

How the results depend on the processing

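The count of 261 called genes stayed within 1.5 times under median-of-ratios scaling (205), quantile normalization (209), pseudocounts of 0.5 and 5 (251 and 236), a filter at 5 CPM (282), DESeq2 (311), thinning to equal depth (178), and without experiments 1 and 2 (323 and 310). It moved further with no filter (95), by edgeR (165), without experiments 3, 4 and 5 (34, 36 and 47), without the 3 shallowest libraries (28), with the 10 libraries alone (5) and with these without OLA+BTC 2 (32). Leaving out 1 library gave 71 to 474. EdgeR without OLA+BTC 2, chosen after seeing the data, gave 163. The pairing by experiment decided most calls: without the replicate block 1 gene was called and 734 had an unadjusted p under 0.05.

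The split of 92 higher and 169 lower turned to 126 and 79 under median-of-ratios scaling, which moved the median of all genes to -0.06 on the log2 scale, to 124 and 85 under quantile normalization (-0.01), and to 206 and 105 by DESeq2. The log2 difference of ERBB3, DHA+BTC minus OLA+BTC, turned positive, at 0.0747, after thinning. The interaction stayed at 0 calls in every setting run. The causes of these shifts were not tested. The DHA+BTC libraries were the shallower, with a floor of up to 2.41 CPM, so falls of genes of a few CPM are limited by depth.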
